A study of Mus musculus with 12 samples.

Results

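PAX, SOX, LHX, NKX and TBX factors are DNA-binding proteins that set cell identity in the embryo, and 60 of their genes were followed here in mouse myeloid cells with and without EZH2. They were taken as the transcript clusters annotated to exactly 1 symbol of the form Pax, Sox, Lhx, Nkx or Tbx with its number, with Tbx15 left out. The 62 clusters found stood for 60 genes of the 30145 that had a 1-symbol cluster, and the brighter cluster by mean over all arrays was used for Nkx1-1 and Nkx1-2, which had 2. There were 9 Pax, 19 Sox, 7 Lhx, 13 Nkx and 12 Tbx genes.

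The cells were HoxB8-ER lines, mouse bone marrow progenitors immortalized by HOXB8 joined to the hormone-binding part of the estrogen receptor, on a C57BL/6 background. Every group carried this fusion. Estradiol at 0.5 µM holds such cells as dividing progenitors, and its removal lets them become neutrophils in 6 days. The 6 groups had 2 arrays each. Undifferentiated cells were wild type or Ezh2-/-, and so were the neutrophils derived from them. A further pair of groups were wild-type neutrophils exposed to GSK343, which blocks EZH2 activity, or to vehicle. GSK343 was used for 9 days at a dose that the sample labels state as 0.5 µM and the series text as 1 µM. The Ezh2-/- cells came from null mice and the controls from littermates. Neither the number of lines nor whether the 2 arrays of a group were separate cultures is stated in the labels. Genotype and cell line therefore cannot be told apart, and the p-values reflect the spread between single arrays alone, which can be technical.

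PAX proteins bind DNA through a paired domain, SOX proteins through a high-mobility-group box that bends it, LHX proteins through a homeodomain beside LIM domains that bind cofactors, NKX proteins through an NK-type homeodomain and TBX proteins through a T-box. In cells where they are not used, many of these genes are covered by Polycomb repressive complex 2, whose catalytic subunit EZH2 methylates histone H3 at lysine 27, a mark of silenced developmental genes. In blood, PAX5 directs B cells, T-bet (Tbx21) directs type 1 T cells and natural killer cells, SOX4 acts in lymphoid and myeloid progenitors, and SOX6 acts in red cell precursors.

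Ezh2 itself lay at 11.57 and 11.65 (log2 signal) on the wild-type undifferentiated arrays and at 9.1 and 9.44 on the Ezh2-/- ones. In neutrophils it lay at 8.31 and 8.34 in wild type and at 8.74 and 9.02 in those labelled Ezh2-/-, so the transcript was not lower there. These are called neutrophils labelled Ezh2-/- throughout. The 8 arrays of the genotype groups had medians of 4.54 to 4.65 over all clusters and the 4 drug arrays 3.88 to 3.96, so levels are compared only within each of these array ranges. Array background, at 4.83 to 5.79, was set from 23 antigenomic control probe sets as their 95th percentile on each array. The medians of the negative control probe sets lay at 5.19 to 6.6, above that limit on most arrays, so which genes pass background depends on the choice of limit. Replicate arrays correlated at r of 0.984 to 0.995 across clusters. Differences were tested with limma over 65956 clusters and called at a Benjamini-Hochberg adjusted p under 0.05.

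Most of the 60 genes stayed at array background in every group. A total of 50 were not above background on any of the 12 arrays, and 8 were above it on both arrays of at least 1 group (Sox4, Sox6, Sox12, Sox21, Nkx2-1, Nkx2-3, Lhx1 and Tbx6). On single arrays 1 to 8 of the 60 passed the limit, beside 28.8% to 43.4% of all clusters. Wild-type undifferentiated cells had 2 such genes, Sox4 and Sox12. Ezh2-/- undifferentiated cells had 4, the same 2 with Nkx2-3 and Sox21. Wild-type neutrophils had 2, Sox12 and Tbx6, and neutrophils labelled Ezh2-/- had 5, namely Lhx1, Nkx2-3, Sox6, Sox12 and Tbx6. The vehicle arrays had Nkx2-1 and Tbx6 above background, and the GSK343 arrays Nkx2-1. Among the genotype arrays, the limit was lowest on array 2 of the neutrophils labelled Ezh2-/- (4.97). There Nkx2-1, Pax6 and Sox4 passed it while they did not on array 1 of that group. Lhx1 passed that limit as well, at 5.04, while the higher 5.18 on wild-type neutrophil array 2 was under its own limit of 5.47. The mean of Lhx1 was 5.53 in both of these neutrophil groups. Of all clusters, 33.3% passed on array 1 and 43.4% on array 2 of the neutrophils labelled Ezh2-/-. With the stricter limit of the 95th percentile of the negative controls, 1 gene of the 60, Sox4, was above background.

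**Figure D1:**
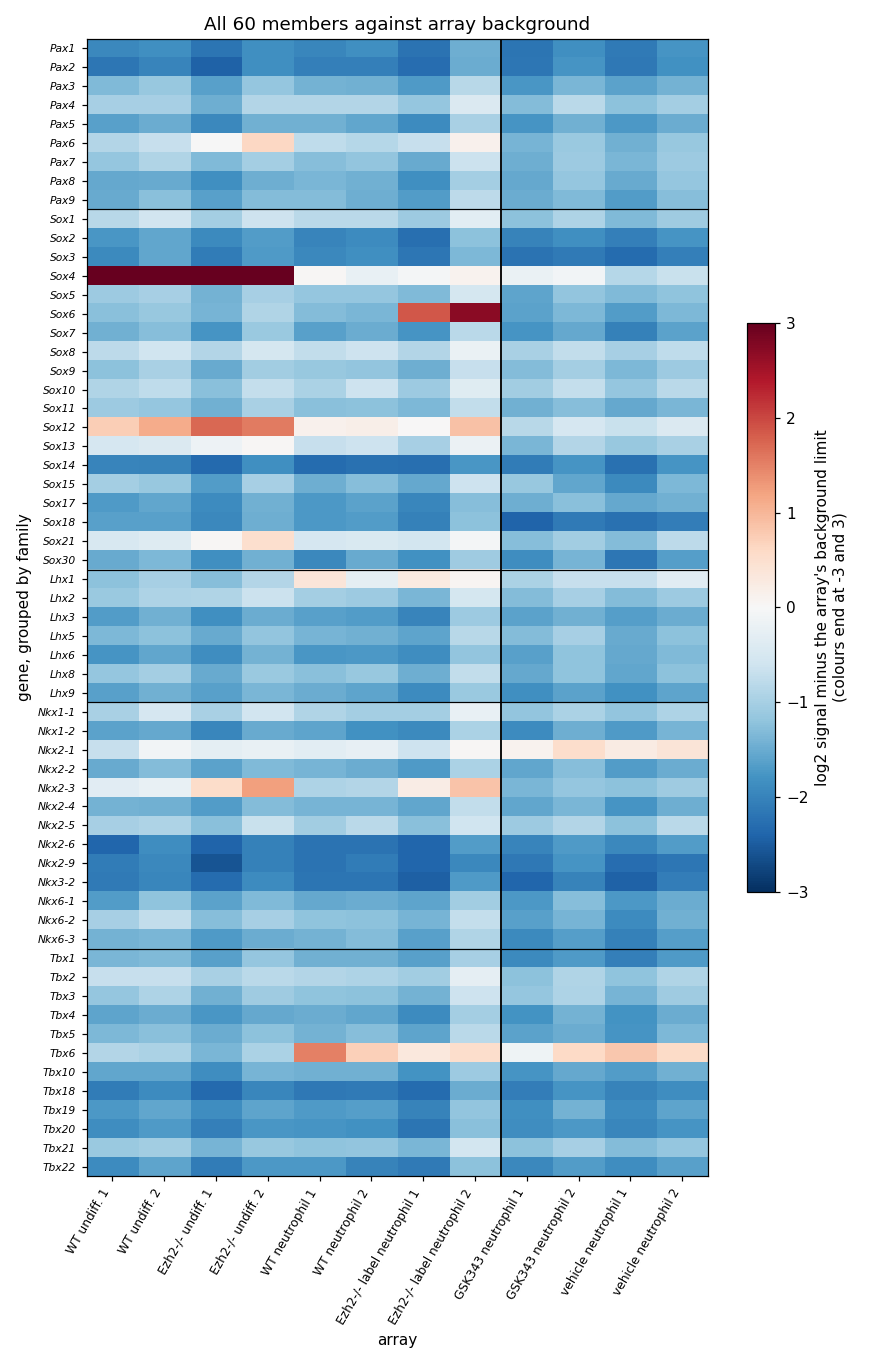
Log2 signal minus the background limit of its array, for the 60 genes (rows, by family) on the 12 arrays (columns, by group), with the colour scale capped at -3 and 3. Rows are at or below 0 for most genes, and 50 genes were above 0 on no array.

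**Figure D2:**
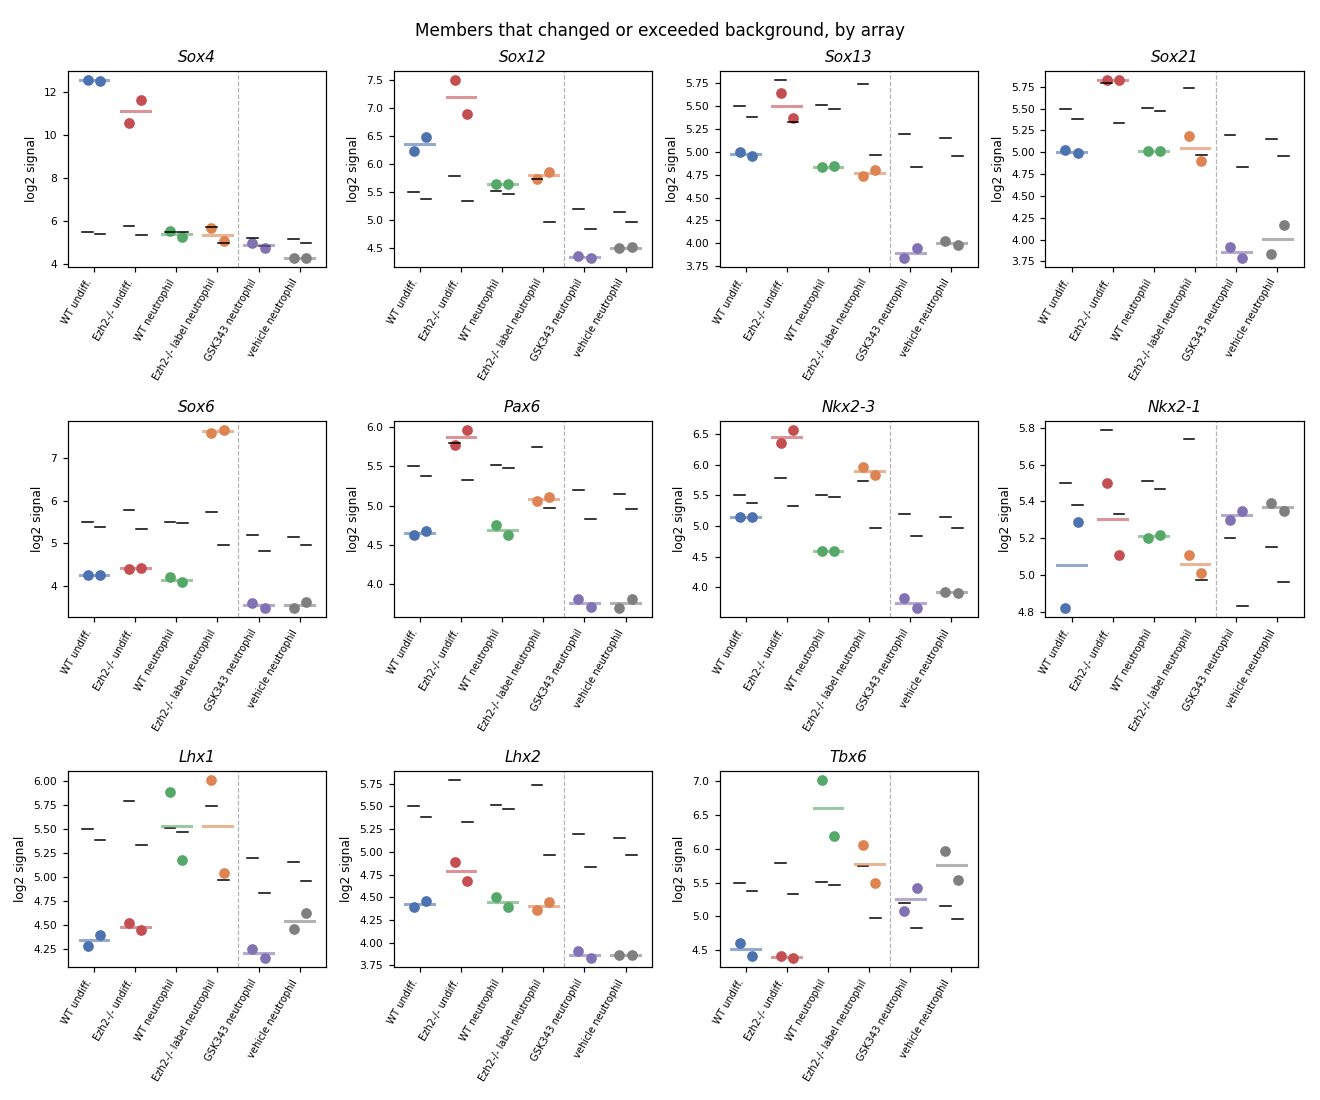
Log2 signal (vertical axis) of 11 of the genes on each of the 12 arrays, with a point per array, a coloured bar for the mean of the 2 arrays of a group, a black tick for the background limit of the array and a dashed line between the array ranges. Sox4 lay between 10.56 and 12.57 on the undifferentiated arrays, and Sox6 at 7.6 and 7.67 on the neutrophils labelled Ezh2-/-.

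Between genotypes, few of these genes changed. In undifferentiated Ezh2-/- cells 3 of the 60 were higher than in wild type (Nkx2-3, Pax6 and Sox21) and 1 was lower (Sox4), which is 6.67% of the genes beside 2.99% of all clusters. The 3 that rose stand beside 1.65% of all clusters called higher and the 1 that fell beside 1.34% called lower. In neutrophils labelled Ezh2-/- 2 were higher than in wild-type neutrophils (Sox6 and Nkx2-3) and none was lower. That is 3.33% of the genes beside 11.8% of all clusters, or 6.75% called higher, so the share called was below the background there. The median difference of the 60 genes was 0.03 (log2) in undifferentiated cells and 0.01 in neutrophils, against -0.01 and -0.03 over all clusters. Within 0.5 log2 of no difference lay 54 of the 60 in undifferentiated cells and 57 in neutrophils.

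GSK343 changed none of the 60 against vehicle in limma, where 0.00152% of all clusters (1 cluster) was called. None had an unadjusted p under 0.05, and the smallest adjusted p was 0.921. The differences ran from -0.51 (Tbx6) to 0.57 (Sox4), with a median standard error of 0.122 and a largest one of 0.317, and 58 of the 60 lay within 0.5 log2 of no difference.

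Differentiation changed 5 of the 60 in wild-type cells and 10 in Ezh2-/- cells. In wild type 2 rose (Tbx6 and Lhx1) and 3 fell (Sox4, Sox12 and Nkx2-3), 8.33% beside 25.3% of all clusters, of which 13.0% rose and 12.2% fell. In Ezh2-/- cells 3 rose (Sox6, Tbx6 and Lhx1) and 7 fell (Sox4, Sox12, Pax6, Sox21, Sox13, Nkx2-3 and Lhx2), 16.7% beside 22.4% of all clusters, of which 11.7% rose and 10.7% fell. The interaction of genotype with stage, which tests whether differentiation differed between genotypes, called 2 of the 60, 3.33% beside 4.41% of all clusters. Sox6 was called upward, beside 2.77% of all clusters, and Pax6 downward, beside 1.65%. Markers of maturing myeloid cells moved with stage. All 9 neutrophil markers rose in both genotypes, and so did 5 of 6 monocyte and macrophage markers, whose mean log2 signal went from 6.29 to 6.34 up to 10.91 to 11.95 in wild type and from 5.5 to 5.71 up to 9.6 to 9.69 in Ezh2-/- cells. On differentiation of Ezh2-/- cells all 7 erythroid markers and 6 of 7 mast cell and basophil markers rose too, and 1 (Kit) fell. In wild type none of the 7 erythroid markers was called, and 4 of the 7 mast cell and basophil markers fell. The part of all these markers in the stage differences was not tested. These comparisons share arrays: each stage comparison uses the undifferentiated arrays that the genotype comparison uses.

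**Figure D3:**
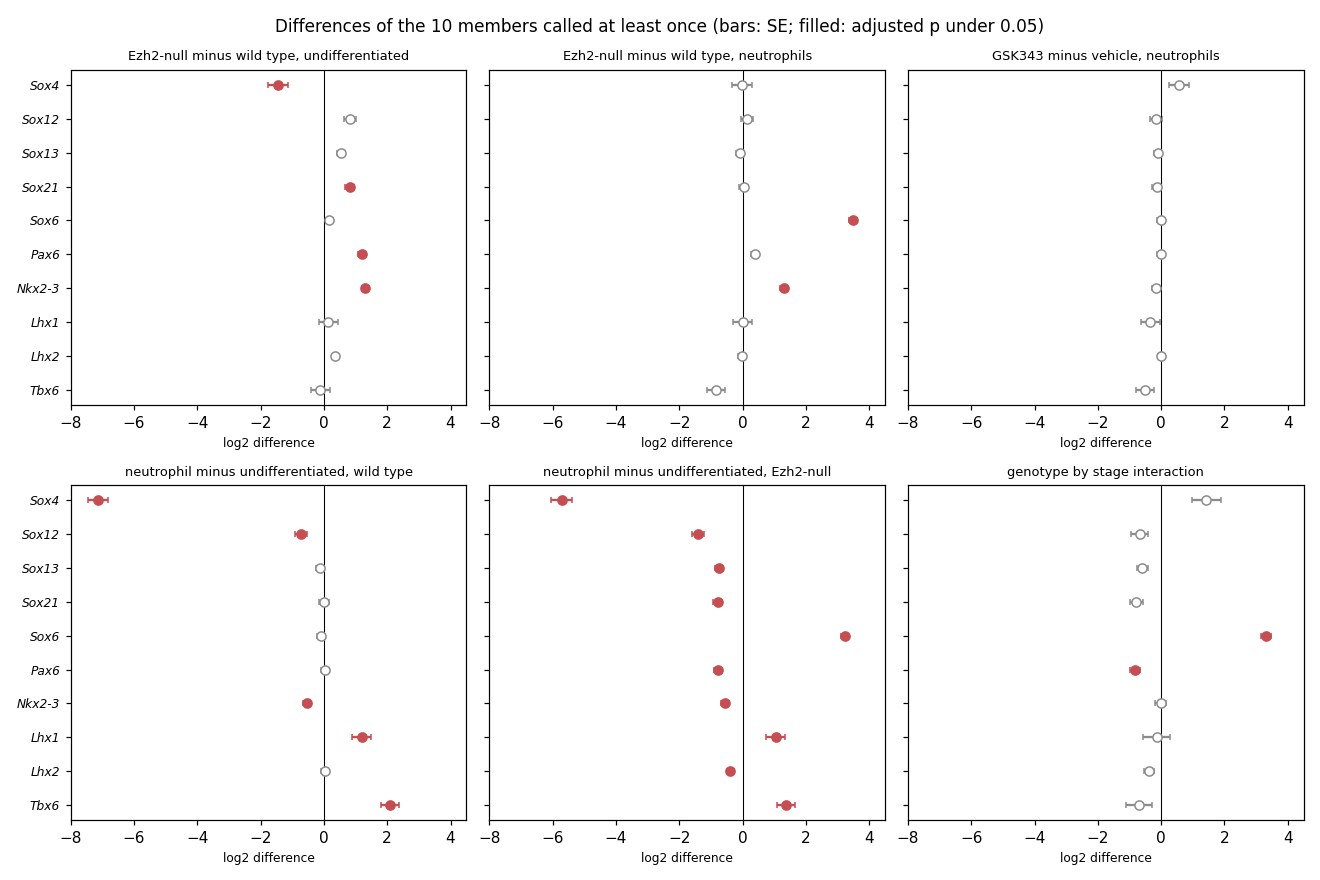
Log2 difference (horizontal axis) with its standard error for the 10 genes called in at least 1 of 6 comparisons, with a filled point for an adjusted p under 0.05 (limma) and an open point otherwise. Sox4 has the widest downward differences, -7.15 and -5.72 on differentiation, and all 10 points of the GSK343 comparison are open.

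Among the SOX genes, Sox4 (cluster TC1300001722.mm.1), a SOXC factor of progenitor cells, was the brightest of the 60 and the one that fell furthest on differentiation. Its log2 signal was 12.57 and 12.52 in wild-type undifferentiated cells, 10.56 and 11.63 in Ezh2-/- undifferentiated cells, 5.54 and 5.25 in wild-type neutrophils and 5.67 and 5.08 in neutrophils labelled Ezh2-/-. On the drug arrays it was 4.99 and 4.74 with GSK343 and 4.29 and 4.3 with vehicle, under background on all 4. Undifferentiated and neutrophil arrays lay far apart in both genotypes, and 1 array of each neutrophil group was still above background. The log2 difference between stages was -7.15 in wild type (SE 0.317, limma adjusted p = 9.24e-07) and -5.72 in Ezh2-/- cells (SE 0.317, adjusted p = 4.8e-06). The measured means stood 143.0-fold and 52.9-fold apart, but with 1 of 2 arrays under background in each neutrophil group these folds are not exact. These are bulk samples, so fewer cells with Sox4 and less Sox4 RNA per cell cannot be told apart.

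Both Ezh2-/- undifferentiated arrays had less Sox4 than either wild-type array, by 2.73-fold on average (12.55 ± 0.03 against 11.1 ± 0.76, SD, n = 2 each, limma adjusted p = 0.0456). The Ezh2-/- arrays differed from each other by more than 1 log2 unit, and the call was lost in 9 of 11 alternative settings, over which the difference ran from -1.98 to -0.91. Without Ezh2-/- undifferentiated array 1 it was -0.91 (adjusted p = 0.0902), without wild-type array 1 -1.42 (adjusted p = 0.233) and without wild-type array 2 -1.47 (adjusted p = 0.181). Maturation markers differed between the same arrays: the mean log2 signal of 4 promyelocyte genes was 14.03 to 14.53 in wild type and 11.33 to 12.67 in Ezh2-/- cells. There 2 of the 4 were lower (Elane by -3.56 and Ctsg by -4.00, both neutrophil granule proteases), beside 1.34% of all clusters. The mean of 9 neutrophil markers was 5.72 to 6.09 in wild type and 6.91 to 8.18 in Ezh2-/- cells. There 2 of the 9 were higher (S100a9 and Ltf), beside 1.65% of all clusters. Their part in the genotype differences of undifferentiated cells, for Sox4 and for the genes below, was not tested.

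Sox12, another SOXC factor, was present in all 4 genotype groups at lower signal. It lay at 6.24 and 6.49 in wild-type and 7.51 and 6.89 in Ezh2-/- undifferentiated cells, then at 5.64 and 5.65 in wild-type neutrophils and 5.74 and 5.86 in those labelled Ezh2-/-. All 8 values were above their background. Sox12 fell 1.65-fold on differentiation in wild type (log2 difference -0.72, SE 0.187, adjusted p = 0.0193) and 2.64-fold in Ezh2-/- cells (-1.4, SE 0.187, adjusted p = 0.000658). In wild type the call was lost without undifferentiated array 2 (-0.59, adjusted p = 0.132) and without either neutrophil array (adjusted p = 0.0804 and 0.0743). The genotype difference in undifferentiated cells, 0.83, did not pass the test (SE 0.187, adjusted p = 0.0516). It was called when each array was centred on its median, when dim clusters were left out, and without Ezh2-/- undifferentiated array 2. The drug arrays held Sox12 at 4.32 to 4.52, all under background. Sox11, the remaining SOXC gene, was not above background on any array.

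Sox6 (TC0700004148.mm.1), a SOXD factor that in red cell precursors helps to silence embryonic globin genes and supports maturation, had the largest genotype difference in neutrophils among the 60 genes. Its log2 signal was 4.21 and 4.09 in wild-type neutrophils and 7.6 and 7.67 in neutrophils labelled Ezh2-/-. It was 4.25 on both arrays of wild-type undifferentiated cells, 4.39 and 4.43 in Ezh2-/- undifferentiated cells and 3.48 to 3.62 on the 4 drug arrays. Only the neutrophils labelled Ezh2-/- were above background, on both arrays, and no value of another group reached it. Against wild-type neutrophils the difference was 3.49 (SE 0.112, limma adjusted p = 3.32e-07), at least 4.42-fold. Here "at least" sets the brighter group's mean against the background limit of the dimmer arrays. Against Ezh2-/- undifferentiated cells Sox6 rose by 3.23 (SE 0.112, adjusted p = 3e-07), at least 4.21-fold. In wild type it differed by -0.1 between stages, and the interaction was 3.33 (SE 0.158, adjusted p = 1.06e-05). GSK343 and vehicle differed by -0.01 (SE 0.112). The genotype difference exceeded the drug difference by 3.49 (SE 0.158, adjusted p = 7.49e-06), a contrast added after the data had been seen that called 2 of the 60 genes, both higher, beside 3.3% of all clusters, or 1.97% called higher.

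The Sox6 promoter window is shown because Sox6 had the widest genotype difference of the 60. It is the RefSeq sequence (GRCm38.p6) from 250 bases before to 50 after the first of 6 listed starts, at chr7:116038695-116038994 on the minus strand, with each CG in capitals. CG-rich promoters are those on which Polycomb repressive complex 2 is typically found.
Sox6: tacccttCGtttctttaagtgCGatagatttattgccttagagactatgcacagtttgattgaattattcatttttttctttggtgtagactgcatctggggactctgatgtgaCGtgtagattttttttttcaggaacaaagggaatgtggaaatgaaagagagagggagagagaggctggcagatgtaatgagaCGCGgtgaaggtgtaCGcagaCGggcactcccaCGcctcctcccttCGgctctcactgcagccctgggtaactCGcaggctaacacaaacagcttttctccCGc
This window held 11 CG, and 41.9% of the windows of all genes held at least as many. The median was 17 over the 46 of the 60 genes with a listed window. Polycomb binding was not measured here.

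Genes that work with SOX6 in red cell precursors were higher in the same arrays. Of 6 such genes measured, 5 were higher in neutrophils labelled Ezh2-/- than in wild type and none was lower, beside 6.75% of all clusters called higher, with a median difference of 3.13 against -0.03 over all clusters. Zfpm1, a cofactor of GATA factors, lay at 6.34 and 6.19 in wild-type neutrophils and at 11.34 and 11.8 in those labelled Ezh2-/- (39.6-fold, log2 difference 5.31, SE 0.164, adjusted p = 2.53e-07). Klf1, a red cell activator, lay at 4.74 and 4.82 against 8.88 and 9.39 (at least 12.5-fold, difference 4.35). Bcl11a, the partner of SOX6 at globin genes, lay at 4.72 and 4.66 against 8.27 and 8.73 (at least 8.05-fold, difference 3.81). Epor, the erythropoietin receptor, and Gata1, the main red cell factor, differed by 2.44 and 2.04. The sixth gene, embryonic globin Hbb-y, was not called. In undifferentiated Ezh2-/- cells 3 of the 6 were higher (Bcl11a 2.39, Zfpm1 0.89 and Gata1 0.62), beside 1.65% of all clusters. Gata1 was under background on every undifferentiated array of both genotypes. Sox6 itself differed there by 0.16 and was not called. GSK343 changed none of the 6.

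Markers of other cells moved with Sox6. All 7 erythroid markers measured were above background on both arrays of the neutrophils labelled Ezh2-/-, with a mean log2 signal of 10.37 to 10.67, and 0 of 7 were so in any other group (4.69 to 4.7 in wild-type neutrophils). All 7 were higher in that comparison, and 3 of the 7 (Gata1, Klf1 and Epor) are also among the 6 genes above. The 7 mast cell and basophil markers were likewise all higher (mean 12.47 to 13.11 against 5.28 to 5.3), and 3 of 9 neutrophil markers were lower (Ly6g, Ltf and Camp). Of all clusters, 6.75% were called higher and 5.06% lower in this comparison. Their part in the Sox6 difference was not tested.

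**Figure D4:**
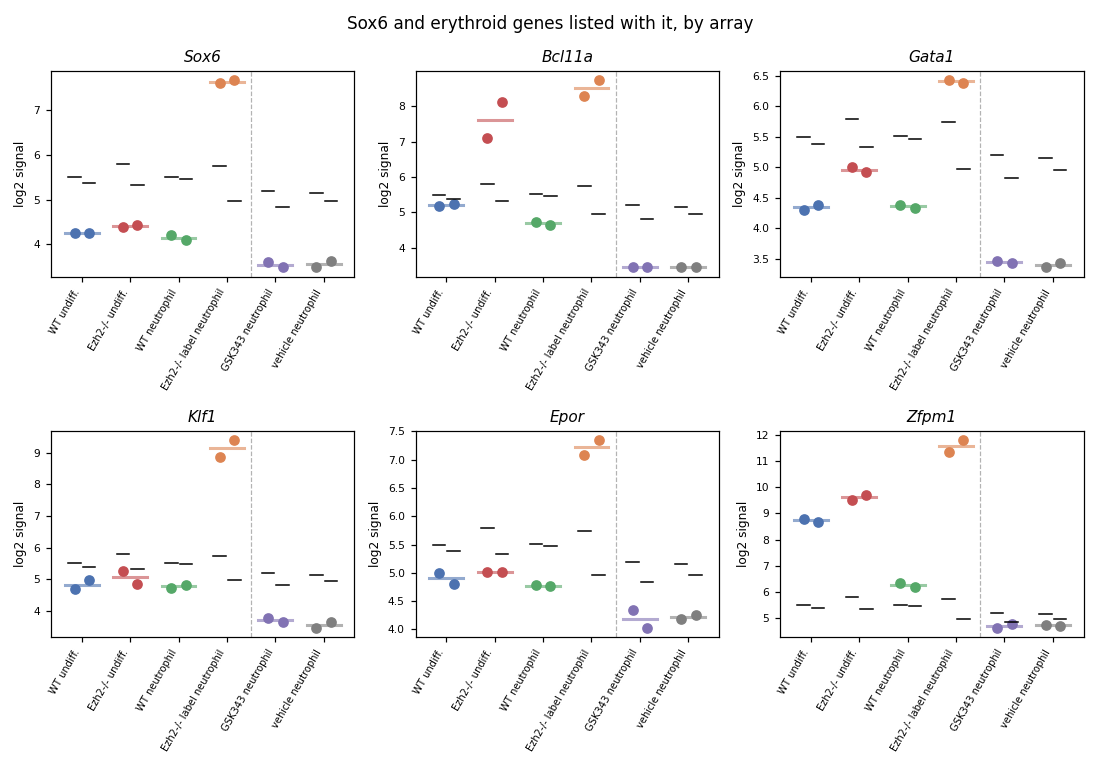
Log2 signal (vertical axis) of Sox6, Bcl11a, Gata1, Klf1, Epor and Zfpm1 on the 12 arrays, with a point per array, a bar for the mean of the 2 arrays of a group and a black tick for the background limit of the array. In the genotype range each gene is brightest in the neutrophils labelled Ezh2-/-, such as Sox6 at 7.6 and 7.67.

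Sox13, the SOXD factor of gamma-delta T cells, and Sox21, a SOXB2 repressor of neural progenitors, stayed close to background. Sox21 lay at 5.02 and 4.99 in wild-type undifferentiated cells and at 5.83 on both Ezh2-/- arrays, then at 5.01 on both wild-type neutrophil arrays and at 5.19 and 4.9 in those labelled Ezh2-/-. Only the Ezh2-/- undifferentiated arrays passed their background. The genotype difference there was 0.82 (SE 0.145, limma adjusted p = 0.0162, at least 1.31-fold), and on differentiation of Ezh2-/- cells Sox21 fell by 0.78 (adjusted p = 0.00401). The genotype call was lost without wild-type undifferentiated array 1 (0.84, adjusted p = 0.102) or array 2 (0.81, adjusted p = 0.105). Sox13 lay at 5.0 and 4.95 in wild-type and 5.64 and 5.37 in Ezh2-/- undifferentiated cells, and at 4.74 to 4.84 on the 4 neutrophil arrays of the genotype range. It fell by 0.74 in Ezh2-/- cells (SE 0.122, adjusted p = 0.00218), and its genotype difference of 0.53 in undifferentiated cells was not called (adjusted p = 0.0567). Sox9 (3.81 to 4.4 over the 12 arrays), the factor of cartilage and Sertoli cells, and Sox17 (3.53 to 3.9), the factor of endoderm and of fetal blood stem cells, were not above background anywhere and were not called.

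Of the PAX genes 1 of 9, Pax6, was called, and none was above background on both arrays of a group. Such counts by family, here and below, pool the 6 comparisons. The share of all clusters called in at least 1 of them was not computed, and single comparisons called up to 25.3% of all clusters. Pax6 (TC0200001583.mm.1), a factor of eye, brain and pancreas, lay at 4.63 and 4.68 in wild-type undifferentiated cells and at 5.77 and 5.96 in Ezh2-/- ones. In neutrophils it lay at 4.75 and 4.62 in wild type and at 5.06 and 5.11 in those labelled Ezh2-/-, and on the drug arrays at 3.7 to 3.82. The 2 Ezh2-/- undifferentiated arrays were the highest, and 1 of them was above its background. The difference from wild type was 1.21 (SE 0.119, limma adjusted p = 0.00056, at least 1.34-fold), and Pax6 fell by 0.78 on differentiation of Ezh2-/- cells (SE 0.119, adjusted p = 0.00135). In neutrophils the genotype difference was 0.39 and was not called (adjusted p = 0.0672). The interaction was -0.82 (SE 0.168, adjusted p = 0.0282). That call was lost in 8 of 14 alternative settings, among them leaving out either wild-type undifferentiated array, Ezh2-/- undifferentiated array 2, wild-type neutrophil array 1 or either array of the neutrophils labelled Ezh2-/-, with adjusted p of 0.0607 to 0.0978. Pax5, the B cell factor, ranged from 3.85 to 4.08 in the 8 genotype arrays and from 3.4 to 3.47 in the drug arrays, with no group above background and no call.

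Genes that PAX5 acts on or with did not share a direction. Of 8 measured B cell genes, Ebf1, a B cell factor that works with PAX5, fell by 7.12 on wild-type differentiation, from 11.81 and 11.73 to 4.59 and 4.72 (at least 77.8-fold), and differed by -7.19 between the stages of Ezh2-/- cells. Cd79b, a B cell receptor subunit, was higher in Ezh2-/- undifferentiated cells (2.03) and in neutrophils labelled Ezh2-/- (0.89), and fell in both differentiations. Blnk, a signalling adaptor, and Cd22, an inhibitory receptor, were lower in neutrophils labelled Ezh2-/- (-0.89 and -0.64) and rose on wild-type differentiation (1.72 and 0.90).

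Of the NKX genes 1 of 13, Nkx2-3, was called, and it was the only 1 of the 60 called higher in both genotype comparisons. Nkx2-3 (TC1900000630.mm.1), a factor of gut and spleen vessels, lay at 5.15 on both wild-type undifferentiated arrays and at 6.35 and 6.57 on the Ezh2-/- ones. In neutrophils it lay at 4.59 on both wild-type arrays and at 5.97 and 5.83 in those labelled Ezh2-/-. Wild-type values were under background at both stages. Values of the Ezh2-/- undifferentiated cells and of the neutrophils labelled Ezh2-/- were above it, with no overlap between genotypes. The genotype difference was 1.31 in undifferentiated cells (SE 0.122, limma adjusted p = 0.000398, at least 2.03-fold) and 1.31 in neutrophils (SE 0.122, adjusted p = 0.00019, at least 1.33-fold), and the interaction was -0.01 (adjusted p = 0.996). Nkx2-3 fell on differentiation by 0.55 in wild type, where every value was under background, and by 0.56 in Ezh2-/- cells (adjusted p = 0.00796 and 0.00927). The second of these was lost without array 2 of the neutrophils labelled Ezh2-/- (-0.49, adjusted p = 0.0669). With GSK343 the values were 3.83 and 3.66, with vehicle 3.93 and 3.9, a difference of -0.17 (adjusted p = 0.983) under background. The genotype difference in neutrophils exceeded the drug difference by 1.47 (SE 0.172, adjusted p = 0.00202).

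Nkx2-1, the factor of thyroid and lung, was above background on both vehicle arrays (5.39 and 5.35) and both GSK343 arrays (5.3 and 5.35). It lay at 4.82 to 5.5 on the genotype arrays, where 1 array, of the neutrophils labelled Ezh2-/-, was above its limit, and it was called in no comparison. The other 11 Nkx genes were not above background on any array.

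The promoter windows of the 3 genes that were higher in Ezh2-/- undifferentiated cells are shown with their CG content. The arrays did not measure Polycomb binding, and a part of CG content in the differences was not tested. They are RefSeq windows of 300 bases in GRCm38.p6, each CG in capitals. Nkx2-3 is at chr19:43612075-43612374 on the plus strand, Pax6 at chr2:105668646-105668945 on the plus strand (the first of 2 listed starts) and Sox21 at chr14:118236981-118237280 on the minus strand.
Nkx2-3: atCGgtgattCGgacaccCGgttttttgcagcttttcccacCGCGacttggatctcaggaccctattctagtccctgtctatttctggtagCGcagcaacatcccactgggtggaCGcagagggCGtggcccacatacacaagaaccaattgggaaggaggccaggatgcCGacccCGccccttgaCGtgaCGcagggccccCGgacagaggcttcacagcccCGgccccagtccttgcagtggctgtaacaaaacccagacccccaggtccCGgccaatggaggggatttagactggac
Pax6: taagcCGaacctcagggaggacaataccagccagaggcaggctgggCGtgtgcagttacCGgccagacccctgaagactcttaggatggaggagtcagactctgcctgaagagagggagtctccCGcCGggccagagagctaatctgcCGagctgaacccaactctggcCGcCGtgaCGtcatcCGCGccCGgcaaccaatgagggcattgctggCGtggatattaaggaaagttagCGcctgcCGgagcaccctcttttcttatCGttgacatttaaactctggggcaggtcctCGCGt
Sox21: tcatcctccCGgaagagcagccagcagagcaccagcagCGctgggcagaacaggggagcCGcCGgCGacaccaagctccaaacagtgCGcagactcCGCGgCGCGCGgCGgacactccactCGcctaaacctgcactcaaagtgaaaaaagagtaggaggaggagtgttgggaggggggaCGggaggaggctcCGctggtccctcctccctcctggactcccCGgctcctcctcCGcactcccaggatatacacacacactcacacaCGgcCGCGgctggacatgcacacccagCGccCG
The Nkx2-3 window held 15 CG, Pax6 18 and Sox21 22, and 35.2%, 30.1% and 23.3% of the windows of all genes held at least as many.

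CG-rich starts were common among these genes. A window was listed for 46 of the 60, and they held a median of 17 CG (range 1 to 47), against 7 over the windows of 27025 genes. At least 10 CG were found in 34 of the 46 (73.9%), against 43.9% of all windows. CG was searched as these 2 letters, which read the same on both strands, and 94.2% of all windows held at least 1. Among the other genes named here, Sox12 held 47, Sox13 40, Lhx2 34, Lhx1 31, Sox4 12, Nkx2-1 12 and Tbx6 7. Sox12 was thus above all but a few windows (1.41% held at least as many), and Tbx6 was at the middle of them (52.3%).

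**Figure D5:**
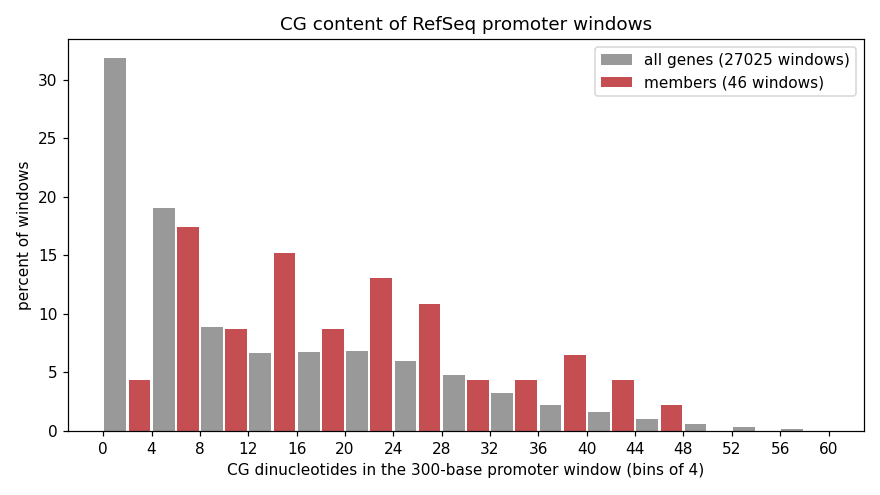
Share of promoter windows (vertical axis, percent) by the number of CG in the 300-base window (horizontal axis, bins of 4), for 46 of the 60 genes and for all 27025 genes. The 46 lie further right, with a median of 17 against 7.

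Of the LHX genes 2 of 7, Lhx1 and Lhx2, were called, both at or near background. Lhx1, the factor of kidney and head organizer, lay at 4.28 and 4.39 in wild-type and 4.52 and 4.44 in Ezh2-/- undifferentiated cells. In neutrophils it lay at 5.88 and 5.18 in wild type and at 6.01 and 5.04 in those labelled Ezh2-/-. Neutrophil arrays were higher than undifferentiated ones in both genotypes, and array 1 was the higher of each neutrophil pair. Lhx1 rose by 1.19 in wild type (SE 0.304, limma adjusted p = 0.0175, at least 1.06-fold with 1 of 2 arrays above background) and by 1.05 in Ezh2-/- cells (SE 0.304, adjusted p = 0.0353). In wild type the call was lost without either undifferentiated array (adjusted p = 0.09 and 0.0662) and without neutrophil array 1 (0.84, adjusted p = 0.13). In Ezh2-/- cells it was lost without either undifferentiated array (adjusted p = 0.096 and 0.098), and without array 1 of the neutrophils labelled Ezh2-/- the difference was 0.56 (adjusted p = 0.215). Lhx2, a factor of forebrain, eye and hair follicle that also expands blood progenitors in culture, was under background on all 12 arrays (3.83 to 4.89). It fell by 0.38 on differentiation of Ezh2-/- cells (adjusted p = 0.0479), a call lost in 6 of 10 alternatives. Without Ezh2-/- undifferentiated array 1 the difference was -0.27 (adjusted p = 0.238), and leaving out either array of the neutrophils labelled Ezh2-/- gave -0.33 and -0.42 (adjusted p = 0.204 and 0.103).

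Of 10 genes for the cofactors that LIM domains bind, 7 were above background on all 12 arrays, and Ldb2, Lmo1 and Lmo3 were above it on none. On wild-type differentiation 5 of the 10 fell and none rose, beside 12.2% of all clusters called lower (median -0.61 against 0.03 over all clusters), among them Lmo2, a blood stem and red cell regulator, from 11.51 and 11.64 to 9.35 and 9.64. In neutrophils labelled Ezh2-/- 3 of the 10 were higher than in wild type and none was lower, beside 6.75% of all clusters called higher: Ssbp3 by 1.77, Ldb1, the LIM-domain binding protein, by 1.26 and Ssbp2 by 1.01. The 7 erythroid and 7 mast cell and basophil markers were all higher on the same arrays, and their part in these differences was not tested. The LIM-homeodomain relatives Isl1, Isl2, Lmx1a and Lmx1b were called in no comparison. Groucho corepressors, which several of these factors recruit, were called in both directions on wild-type differentiation (Tle3 by 1.51, Tle1 by -1.28, of 6 measured). In neutrophils labelled Ezh2-/- 2 of 6, Tle3 and Tle4, were lower and none was higher, beside 5.06% of all clusters called lower. In Ezh2-/- undifferentiated cells Tle1 was lower (-1.09) and Tle6 higher (0.64), beside 1.34% and 1.65% of all clusters.

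Of the TBX genes 1 of 12, Tbx6, was called, and it was above background in neutrophils of 3 groups. Tbx6 (TC0700001817.mm.1), the factor of paraxial mesoderm and somites, lay at 4.61 and 4.42 in wild-type and 4.42 and 4.38 in Ezh2-/- undifferentiated cells. It lay at 7.02 and 6.19 in wild-type neutrophils and at 6.06 and 5.49 in those labelled Ezh2-/-, with no overlap between stages. Tbx6 rose by 2.09 in wild type (SE 0.291, limma adjusted p = 0.00055, at least 2.24-fold) and by 1.38 in Ezh2-/- cells (SE 0.291, adjusted p = 0.00818, at least 1.16-fold). The second call was lost without array 1 of the neutrophils labelled Ezh2-/- (1.09, adjusted p = 0.0665). Neutrophils labelled Ezh2-/- differed from wild-type ones by -0.83, which was not called (adjusted p = 0.116), though it was without wild-type neutrophil array 2. On the drug arrays Tbx6 was 5.97 and 5.54 with vehicle and 5.08 and 5.42 with GSK343, a difference of -0.51 that was not called (adjusted p = 0.928). The gene next to Tbx6 on the lower-coordinate side, Ypel3, rose on the same arrays by 5.21 in wild type (SE 0.409, adjusted p = 1.81e-05) and by 3.55 in Ezh2-/- cells (adjusted p = 0.000269). Ppp4c, on the other side, was above background on all 12 arrays. It differed between stages by 0.05 in wild type and by -0.14 in Ezh2-/- cells and was not called. Tbx21 (T-bet), the factor of type 1 T cells, lay between 3.8 and 4.42 over the 12 arrays and was not called.

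T-bet target and lymphocyte genes were called in both directions. Of the 10 measured, 1 was higher in neutrophils labelled Ezh2-/-, beside 6.75% of all clusters. It was Gzmb, granzyme B, which mast cells also make, at 11.83 and 12.93 against 4.56 and 4.21. In Ezh2-/- undifferentiated cells Gzmb was higher (log2 difference 2.00) and Nkg7, a granule protein of killer cells, was lower (-3.60). That was 1 of the 10 in each direction, beside 1.65% and 1.34% of all clusters. Gzmb lay there at 5.58 and 6.78, with 1 of the 2 arrays above background and wild type under it. Nkg7 lay at 8.54 and 5.77, far apart, against 10.86 and 10.66 in wild type. On wild-type differentiation 2 of the 10 fell and 2 rose, beside 12.2% and 13.0% of all clusters. Nkg7 fell by 5.86, and Klrb1c (-0.84), Cxcr3 (0.40) and Ccl5 (0.72) were called with both groups at or under background. On differentiation of Ezh2-/- cells Gzmb (6.20) and Cxcr3 (0.46) rose. Of 3 T-box relatives measured, Mga was called, with -1.01 on differentiation of Ezh2-/- cells.

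Neighbouring genes on the chromosome were looked at for each gene called. Neighbours were taken from the RefSeq gene order (GRCm38.p6) after the members' values had been seen. In undifferentiated cells 2 of the 8 neighbours of the 4 called genes were themselves called, beside 2.99% of all clusters, in the same direction: Got1 beside Nkx2-3 by 1.95 (SE 0.168, adjusted p = 0.000276) and Elp4 beside Pax6 by 0.66 (adjusted p = 0.0478). In neutrophils 2 of 4 neighbours were called, beside 11.8% of all clusters. They were 1110004F10Rik beside Sox6, higher by 0.9, and Slc25a28 beside Nkx2-3, by -0.84. Got1 differed there by 0.18 and was not called, though Nkx2-3 was. Elp4 (1.07) and Rcn1 (1.54), the neighbours of Pax6, were called higher there, though Pax6 was not called. The neighbours named so far were above background on all 12 arrays, while at most 43.4% of all clusters passed it on any array. Insc, on the other side of Sox6, differed by 0.02 and was under background on all 12 arrays. Of the neighbours of called genes, 3 of 10 were called on wild-type differentiation, near the 25.3% of all clusters, and 10 of 19 on differentiation of Ezh2-/- cells, beside 22.4%. The antisense clusters Pax6os1, Sox6os and Lhx1os were called in no comparison.

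The 50 genes that were never above background varied little. Their values lay between 3.03 and 4.9 on the genotype arrays, where the median gene spanned 0.24 log2 units over 8 arrays and the widest 0.52. On the drug arrays they lay between 2.7 and 4.22, with a median span of 0.18 and a widest span of 0.84. They comprised 8 of 9 Pax, 14 of 19 Sox, 6 of 7 Lhx, 11 of 13 Nkx and 11 of 12 Tbx genes. Lhx2 was the only 1 of these 50 called in any of the 6 comparisons.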

How the data were processed

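Expression was profiled in 12 samples (6 groups of 2) on the Mouse Transcriptome Array 1.0 of Affymetrix from 250 ng total RNA, as the labels' protocols state. Judged by their range, the values the authors deposited are on a log2 scale, 1 signal for each transcript cluster. Expression Console and Transcriptome Analysis Console, both of Affymetrix, are named in the submitters' processing notes. Tool versions and the summarisation were not given in the sources used here, nor was the genome build of the array. Array coordinates are therefore not printed.

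Leaving out 6732 control probe sets of 72688 entries left 65956 clusters for testing. Symbols came from the platform annotation given: 30604 clusters carried 1 symbol, 2146 several and 33206 none. For neighbours and related genes, older symbols were updated through a RefSeq gene table (GRCm38.p6). Lhx4, whose cluster carried a second symbol, was left out.

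All 12 arrays were fitted together with limma 3.58.1 under R 4.3.3, as 6 group means with moderated variances (residual degrees of freedom 6, prior degrees of freedom 3.06). Adjusted p-values are Benjamini-Hochberg values over the 65956 clusters. The fit was tested on simulated data. Precision is limited by having 2 arrays a group, over which each SD was taken. A fold is written "at least" where the dimmer group was not above background on either array, and sets the brighter mean against, per array, the higher of the background limit and the gene's own signal.

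Members named with values were those called in a comparison, those above background on both arrays of a group, and Pax5, Sox4, Sox6, Sox9, Sox17, Lhx2, Tbx21 and Nkx2-3. Sox11 and the neighbouring genes were added after their values had been seen. The members and all gene lists were chosen with earlier results of these data known. The related lists were the SOX6 erythroid partners, LIM cofactors, LIM-homeodomain relatives, Groucho corepressors, PAX5 and T-bet target genes, T-box relatives, and genes related to SOXC and SOXF factors. Alternatives covered the arrays in the fit, the scaling, the filter on dim clusters, the variance model, a minimum fold, the cluster that stands for a gene, the replicate number as a block, the background limit and leaving out each array. Promoter windows came from a RefSeq table, with the first listed start of each gene.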

Additional observations from a re-analysis of the deposited data

Results flagged for a closer look

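Differentiation changed Sox6 and Pax6 differently in the 2 genotypes by the test of the difference itself (limma, interaction of genotype with stage). For Sox6 the interaction was 3.33 (log2, adjusted p = 1.06e-05): the difference between stages was 3.23 in Ezh2-/- cells and -0.1 in wild type. For Pax6 it was -0.82 (adjusted p = 0.0282): the stages differed by -0.78 in Ezh2-/- cells and by 0.03 in wild type. Both rest on 2 arrays a group. The Sox6 call was kept in all 15 alternative settings run for it, and the Pax6 call was lost in 8 of 14, with adjusted p up to 0.0978. The run without dim clusters did not hold Pax6 and is not among its 14.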

How the results depend on the processing

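Of the 23 calls of single genes over the 6 comparisons of genotype, drug, stage and their interaction, 10 were kept in every alternative run for them: Sox6 in its 3 comparisons of genotype and stage, Sox4 on differentiation in both genotypes, Nkx2-3 in neutrophils and on wild-type differentiation, Pax6 and Sox12 on differentiation of Ezh2-/- cells, and Tbx6 on wild-type differentiation. Over all 23, 209 of 256 alternative values kept the call, 47 lost it and none changed direction. These alternatives left out the 2-fold minimum, which was applied to counts of members alone. Nkx2-3 on wild-type differentiation (-0.55) and Pax6 on differentiation of Ezh2-/- cells (-0.78) were under 2-fold. That Nkx2-3 call lay between groups that were both under background. Pax6, Sox13 and Lhx2 were above background on both arrays of no group. The filter on dim clusters thus removed them, and that run was not counted for their calls. The calls of Sox6 and Nkx2-3 in the added contrast of genotype against drug were kept in 14 of 14 alternatives each. The genotype comparison of undifferentiated cells called 4 of the 60 and, with only the 4 compared arrays, 0 (Nkx2-3 then had an adjusted p of 0.0661 and Pax6 of 0.0773, limma), while clusters called went from 1969 to 351. Clusters called were 1061 with the genotype arrays fitted alone, 962 without wild-type array 1 and 1060 without wild-type array 2. Requiring 2-fold left 3 of 5 members on wild-type differentiation, 5 of 10 on differentiation of Ezh2-/- cells (14799 clusters became 9131) and 1 of 2 for the interaction. Neutrophil clusters called between genotypes went from 7791 to 5004 at 2-fold. Fitting the genotype arrays alone gave 3 on wild-type differentiation and 1 for the interaction (2911 clusters became 1352), and the compared arrays alone gave 5 on differentiation of Ezh2-/- cells (7591 clusters) and 1 for the interaction. Leaving out dim clusters, which removed Pax6, gave 1 for the interaction. Members above background went from 8 to 6 at the median of the negative controls and to 1 at their 95th percentile. For GSK343, member calls stayed at 0 while clusters called ranged from 1 to 8, the 8 with each array centred on its median.

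Leaving out 1 array at a time gave 2 to 6 called members for genotype in undifferentiated cells (6 without Ezh2-/- array 2), 2 to 3 in neutrophils, 3 to 4 on wild-type differentiation, 7 to 9 on differentiation of Ezh2-/- cells and 1 to 4 for the interaction. The 4 came without Ezh2-/- undifferentiated array 2, where Sox4, Sox12 and Sox13 were gained and Pax6 was lost. A group left with 1 array was assumed to vary like the others.

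The labels number the arrays of each group, but nothing says that a number pairs samples, and same-numbered arrays deviated together at r of 0.08 (genotype, undifferentiated), 0.28 (genotype, neutrophils), -0.24 (drug), -0.14 and 0.12 (stage in wild type and in Ezh2-/- cells). With the replicate number as a block, called members were 3, 2, 0, 5, 9 and 2 for genotype in undifferentiated cells, genotype in neutrophils, drug, both stage comparisons and the interaction; Sox4 (adjusted p = 0.0738) and Lhx2 (0.0645) were lost. A crossed pairing, added after the data had been seen, called 0 clusters for the drug and 16230 clusters with 4 members for wild-type differentiation.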

Other observations

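A few further genes of lineages in which these factors act were called. Nes, an intermediate filament of neural progenitors, lay at 3.74 and 3.88 in wild-type undifferentiated cells and at 5.69 and 5.34 in Ezh2-/- ones (log2 difference 1.7, SE 0.155, limma adjusted p = 0.000361), with 1 of the 2 Ezh2-/- arrays above background. Mitf, a factor of melanocytes and mast cells, rose on differentiation by 2.58 in wild type, from 6.59 and 6.73 to 8.79 and 9.68, and by 3.35 in Ezh2-/- cells. Of 5 genes related to SOXC and SOXF factors, Vwf, a clotting protein of endothelium and platelets, was called. It rose by 2.21 and by 2.17 in the 2 genotypes, and none of the 5 was called between genotypes or with GSK343. Ssbp2, a LIM cofactor, was lower in Ezh2-/- undifferentiated cells (-0.93) and higher in neutrophils labelled Ezh2-/- (1.01), with an interaction of 1.94.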
